A study of Homo sapiens with 12 samples.

Results

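The 10 genes described here encode secreted interleukins, leukaemia inhibitory factor and colony-stimulating factors: IL1A, IL1B, IL6, IL11, IL18, IL33, LIF, CSF1, CSF2 and CSF3. They were chosen by name, and each was followed through every probe whose accession maps to it in RefSeq, which gave 14 of the 34127 probes on the arrays and 10 of the 20167 gene names. A further 7355 features without a RefSeq name were kept under their accession, and the counts over all genes below include such features. Their mRNAs were measured in the cytoplasmic fraction of U2OS cells, a human osteosarcoma line, after transfection with 20 nM of a control siRNA or of siRNA against DBP5, GLE1 or IPPK. All groups received Lipofectamine2000 and grew in the same medium, with 48 h of culture after transfection according to the methods. Each group had 3 one-colour arrays, 12 in all, and each of 3 replicate numbers occurs on 1 array per siRNA. The methods list a single siRNA against DBP5 and several for control, GLE1 and IPPK, and the labels do not say which of these was used on the arrays. The methods describe the 3 arrays of a group as independent experiments, and the p-values measure the spread between them. The comparisons ask whether the knock-down of each export factor changed the cytoplasmic amount of these mRNAs in the same way.

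IL-1α, IL-1β, IL-18 and IL-33 belong to the IL-1 family. IL-1β and IL-18 are made as precursors that caspase-1 cleaves, whereas IL-1α and IL-33 also act as nuclear proteins and as alarm signals released from damaged cells. IL-6, IL-11 and LIF signal through receptor complexes that share gp130, the product of IL6ST, and activate JAK kinases and STAT3. The colony-stimulating factors act on myeloid cells: CSF1 through the receptor kinase CSF1R, CSF2 (GM-CSF) through CSF2RA and CSF2RB, and CSF3 (G-CSF) through CSF3R. Bone-forming cells are a known source of IL-6, IL-11, LIF and CSF1, which take part in their signalling to osteoclasts. Most of these genes are switched on by NF-kappaB, AP-1 or C/EBP proteins, and many of the mRNAs carry AU-rich elements that speed their decay. DBP5 is a DEAD-box helicase at the nuclear pore that is activated by GLE1 together with inositol hexakisphosphate, the product of the kinase IPPK.

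Levels are log2 intensities after subtraction of the local background and cyclic loess normalization, and a ratio is the knock-down mean over the control mean on the linear scale. Between 70.9% and 77.7% of probes were well above background on each array. DDX19B, the gene of DBP5, was at 0.0643 ± 0.00121 (SD, n = 3) of control after DBP5 siRNA, and its paralog DDX19A was at 0.0537 ± 0.00258. GLE1 was at 0.102 ± 0.0274 after GLE1 siRNA and IPPK at 0.187 ± 0.00815 after IPPK siRNA, where its other probe fell by 1.01 on the log2 scale. Under the alternative settings given below, the log2 difference of GLE1 after its own siRNA ran from -3.51 to -1.85 (main setting -3.30). That of IPPK ran from -2.47 to -1.72 (main setting -2.42) and that of DDX19B from -3.98 to -3.24 (main setting -3.96). The targets also moved with the other siRNAs, and IPPK was at 0.420 of control after DBP5 siRNA (limma adjusted p 7.90e-08). After IPPK siRNA DDX19A was at 0.301 (adjusted p 2.09e-09) but DDX19B only at 0.874 (adjusted p 0.00776), a call lost with normexp or the authors' values. After GLE1 siRNA DDX19A and DDX19B were at 0.541 and 0.490 (adjusted p 7.76e-08 and 3.60e-08). GLE1 was at 0.717 after IPPK siRNA (adjusted p 0.0199), a call lost without control array 2 (0.0539) or IPPK array 1 (0.0646). The part of these shared losses in the cytokine results was not tested. Of 12 markers of mesenchymal and osteoblast cells, 10 were well above background on all arrays, and IBSP, a late osteoblast gene, on no array. Of 7 leukocyte markers, 5 were well above background on all arrays, with PTPRC at 5.97 to 6.21 in the group means. The summed linear level of these 7 ran from 1464 to 1603 in control, 1445 to 1475 after DBP5, 1965 to 2251 after GLE1 and 1089 to 1196 after IPPK siRNA. CSF1R, one of the 7, moved with the knock-downs as given below. The sum of 4 epithelial markers was 783 to 922 in control, 563 to 610 after DBP5, 748 to 930 after GLE1 and 350 to 588 after IPPK siRNA, with KRT5 on no array well above background. The sum of 3 endothelial markers was 249 to 280, 179 to 231, 265 to 337 and 180 to 218 in the same order. Both sums were lower on the DBP5 and IPPK arrays than on the control and GLE1 arrays, but single markers differed. EPCAM had means of 9.49, 8.88, 9.04 and 8.57 in control, DBP5, GLE1 and IPPK knocked-down cells, whereas CDH1 was on no control array well above background (3.48) and read 4.42, 6.78 and 4.78 in the knock-downs. VWF read 6.77, 6.36, 7.31 and 6.08, and CDH5 7.13, 6.89, 6.94 and 6.95. The part of these marker sums in the cytokine results was not tested.

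The mRNAs of IL1A, IL1B, IL6, IL11 and CSF2 were lower than control after both DBP5 and IPPK knock-down and higher after GLE1 knock-down than after either. IL18 was higher than control in all 3 knock-downs, LIF and CSF1 lay between 0.824 and 1.27 times control on their brightest probes, IL33 passed the test in none, and CSF3 was not well above background on any array. Of the 10 genes, 9 were tested, since on all 3 arrays of some siRNA they stood well above background. IL1B met this condition through the control arrays alone, so it had to differ from any group below background. At an adjusted p of 0.05 (limma, Benjamini-Hochberg over 20821 features, of which 16438 are named genes and 4383 are accessions), 6 of the 9 were lower and 1 was higher after DBP5 siRNA, where 54.3% of all genes were called (27.5% lower, 26.7% higher). After IPPK siRNA 5 were lower and 1 was higher, against 55.4% of all genes called (28% lower, 27.3% higher). After GLE1 siRNA 3 were lower and 5 were higher, against 62% of all genes called (31.5% lower, 30.6% higher). Among the named genes alone, the shares called were 59.2% after DBP5, 60% after IPPK and 66.6% after GLE1 siRNA. At least 2-fold lower were 5 after DBP5 siRNA (4.48% of all genes), 5 after IPPK siRNA (5.35%) and IL1B alone after GLE1 siRNA (8.43%), and IL1B is also among the 5 of both other groups. The share of all genes called lower after both DBP5 and IPPK siRNA was 16.9%, and the share also higher in GLE1 knocked-down cells than in both was 4.86%, against 5 of the 9 tested here, IL1B included. Among the 18420 genes well above background on every array, which leaves out IL1B, these shares were 18% and 5.19%, against 4 of 8 cytokine genes for each. These comparisons share the control arrays. In the cytoplasmic RNA of a whole culture, fewer cells that make a cytokine and less of its mRNA per cell cannot be told apart. Less mRNA in the cell and more of it kept in the nucleus cannot be told apart either, since no nuclear RNA was on the arrays.

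**Figure D1:**
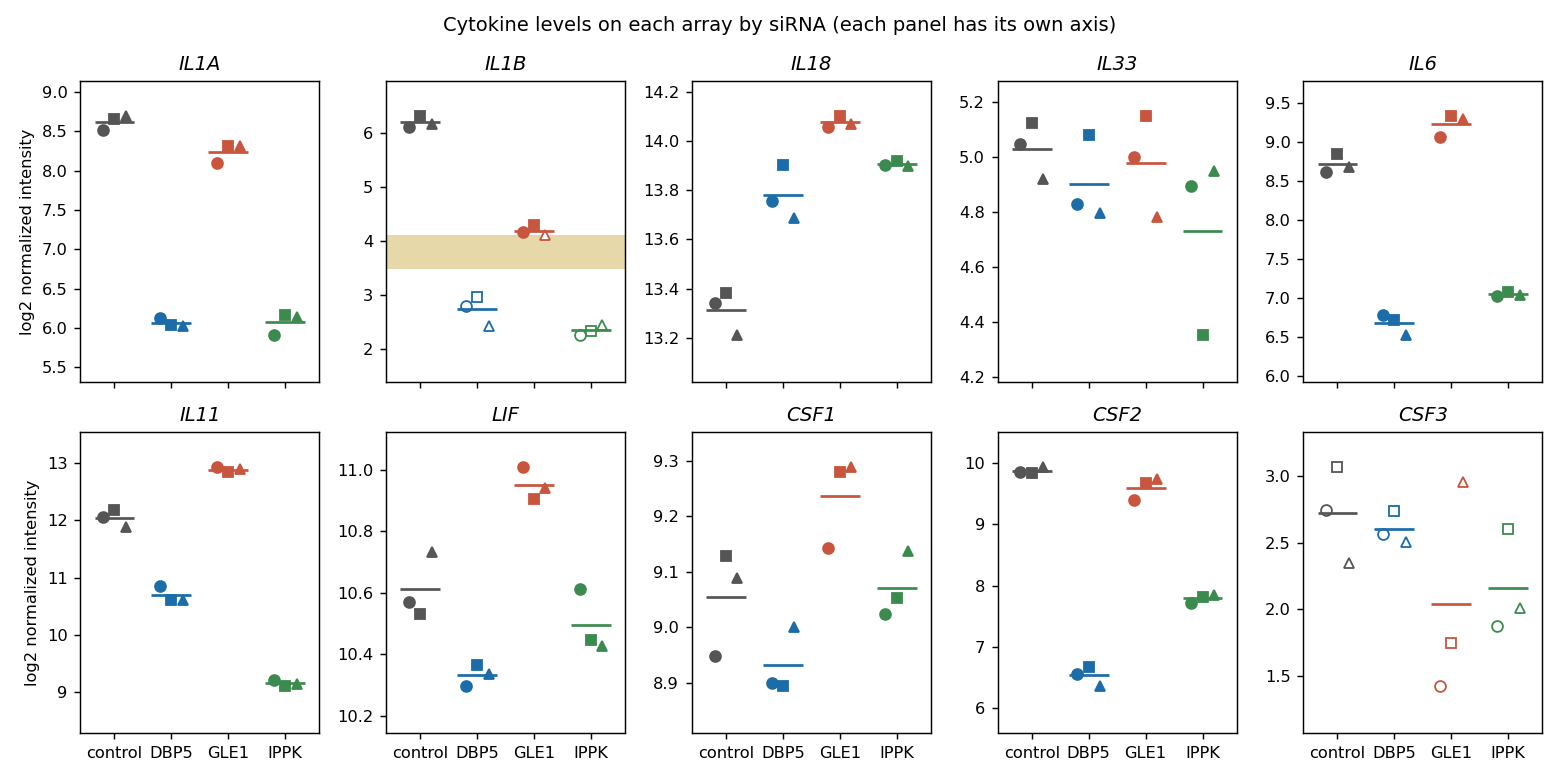
Log2 normalized intensity (y axis) of each cytokine gene on each of the 12 arrays, by siRNA (x axis), with a scale of its own in each panel and the brightest probe of a gene. Circles, squares and triangles are replicates 1, 2 and 3, horizontal bars are group means, open symbols are spots not well above background, and the tan band in the IL1B panel spans the lowest levels well above background over the arrays. IL1A, IL6 and CSF2 sit in a high pair (control, GLE1) and a low pair (DBP5, IPPK), and every CSF3 symbol is open.

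The 250 bases upstream of the annotated start are shown for the 5 genes lower after DBP5 and IPPK than after control or GLE1 siRNA. In this way their regulatory letters can be set beside the values. The sequences are from RefSeq on GRCh38.p14, 5′ to 3′ on the strand of the gene, and capitals mark the matches listed after them. The genes lie on chromosomes 2 (IL1A and IL1B, next to each other, minus strand), 7 (IL6, plus), 19 (IL11, minus) and 5 (CSF2, plus). For IL1A, the window ends at the upstream of its annotated starts.
IL1A, chr2:112784494-112784743, minus strand: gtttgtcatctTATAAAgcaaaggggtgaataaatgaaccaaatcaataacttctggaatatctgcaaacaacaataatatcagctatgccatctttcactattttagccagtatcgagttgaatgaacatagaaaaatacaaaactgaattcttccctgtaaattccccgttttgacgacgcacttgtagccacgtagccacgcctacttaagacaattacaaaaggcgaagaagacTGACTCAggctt
IL1B, chr2:112836780-112837029, minus strand: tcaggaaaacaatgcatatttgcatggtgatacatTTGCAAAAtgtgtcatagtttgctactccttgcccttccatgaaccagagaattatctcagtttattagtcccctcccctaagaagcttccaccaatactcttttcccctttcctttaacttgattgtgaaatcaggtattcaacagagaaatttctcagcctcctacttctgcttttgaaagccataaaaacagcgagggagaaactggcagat
IL6, chr7:22726950-22727199, plus strand: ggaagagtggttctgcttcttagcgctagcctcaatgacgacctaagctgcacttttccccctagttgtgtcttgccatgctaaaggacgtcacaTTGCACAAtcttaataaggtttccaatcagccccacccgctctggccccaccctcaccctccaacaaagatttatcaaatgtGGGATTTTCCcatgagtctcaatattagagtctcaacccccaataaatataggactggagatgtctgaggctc
IL11, chr19:55370464-55370713, minus strand: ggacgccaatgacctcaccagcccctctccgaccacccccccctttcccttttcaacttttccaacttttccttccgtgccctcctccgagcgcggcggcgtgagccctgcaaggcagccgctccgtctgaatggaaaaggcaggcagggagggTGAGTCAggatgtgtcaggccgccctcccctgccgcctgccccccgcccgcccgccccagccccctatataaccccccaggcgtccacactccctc
CSF2, chr5:132073539-132073788, plus strand: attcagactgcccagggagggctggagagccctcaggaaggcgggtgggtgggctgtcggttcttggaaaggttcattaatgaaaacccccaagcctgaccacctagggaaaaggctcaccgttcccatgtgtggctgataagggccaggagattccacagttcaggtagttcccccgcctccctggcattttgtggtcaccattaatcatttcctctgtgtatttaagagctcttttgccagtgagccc

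Both strands were searched for TATAAA, for the NF-kappaB consensus, for TGANTCA (AP-1), for TTGCNNAA (C/EBP) and for TGACGTCA (CRE), and no matches overlapped in these windows. The IL6 window held a C/EBP match, TTGCACAA, at bases -155 to -148 from the start and an NF-kappaB match, GGGATTTTCC, at -73 to -64. The IL11 window held an AP-1 match, TGAGTCA, at -96 to -90. In the IL1A window, TATAAA stood at -239 to -234 and the AP-1 letters TGACTCA at -12 to -6. A second IL1A window, from a start farther downstream, held the same TGACTCA and a further AP-1 match, TGAGTCA, at -55 to -49. The IL1B window held a C/EBP match, TTGCAAAA, at -215 to -208. The CSF2 window held none of the 5 motifs in these exact letters. Among 35116 promoter windows of the same length, 3763 held TATAAA, and 9.96% held the NF-kappaB consensus, 6.57% the AP-1 letters, 9.05% C/EBP and 1.65% CRE. No motif was common to the 5 windows printed. A match is a description of letters and does not show binding in these cells.

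**Figure D2:**
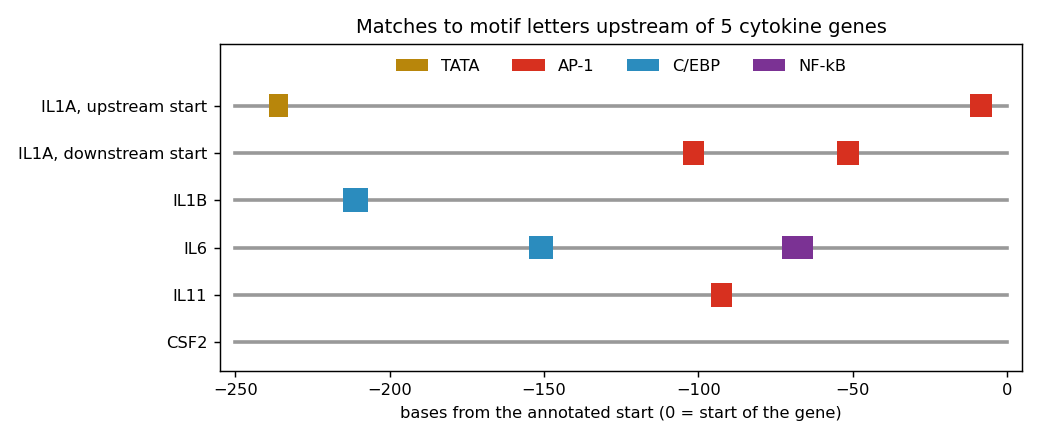
Position of motif matches (coloured blocks) in the 250 bases before the annotated start of the 5 cytokine genes, with the distance from the start in bases on the x axis. IL1A is drawn for both of its starts. AP-1 blocks appear at IL1A and IL11, C/EBP blocks at IL1B and IL6, the NF-kappaB block at IL6 alone, and the CSF2 line is empty.

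IL1A, an inflammatory cytokine that also enters the nucleus, read 8.51, 8.65 and 8.70 on the control arrays. It read 6.13, 6.03 and 6.02 after DBP5 siRNA and 5.91, 6.16 and 6.14 after IPPK siRNA. After GLE1 siRNA it read 8.10, 8.31 and 8.32. The DBP5 and IPPK arrays overlapped far below all others, and the GLE1 arrays lay just under the control arrays without overlap. IL1A was at 0.169 ± 0.00677 of control (SD, n = 3) after DBP5 siRNA (limma adjusted p 7.46e-09), 0.171 ± 0.0158 after IPPK siRNA (adjusted p 6.03e-09) and 0.769 ± 0.0649 after GLE1 siRNA (adjusted p 0.00294). The order of levels was control, GLE1, IPPK and DBP5, and the last of these did not differ from IPPK (ratio 0.993, 95% interval 0.869 to 1.14, adjusted p 0.944). On the processed values of the authors, which lack background subtraction, the differences from control were -1.78 after DBP5 and -1.75 after IPPK siRNA on the log2 scale, against -2.56 and -2.55.

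IL1B, the IL-1 form secreted after cleavage by caspase-1, was dim even in control cells, at 6.10, 6.31 and 6.17. After GLE1 siRNA it read 4.17, 4.29 and 4.11, with 2 of these 3 arrays well above background. After DBP5 siRNA (2.81, 2.97 and 2.43) and IPPK siRNA (2.27, 2.34 and 2.44) it was not well above background on any array. All control arrays were thus above all GLE1 arrays, and these above all others. With each dim array set to the lowest level well above background of any probe there, IL1B was 6.10-fold lower than control after DBP5 siRNA (limma adjusted p 9.84e-09). The same fold was 4.54 after IPPK siRNA (adjusted p 3.94e-09). IL1B missed the flag at 4.11 on GLE1 array 3, above that lowest level of 3.78, so neither fold is a strict lower bound. After GLE1 siRNA the ratio was 0.249 ± 0.0158 over its 3 arrays, of which 1 was not well above background (adjusted p 1.71e-07). Since IL1B passed the filter through the control arrays alone, where it is high, its falls in the 3 knock-downs were favoured by the filter and their p-values are no independent support. No fold is given between the knock-downs, since 1 GLE1 array and all DBP5 and IPPK arrays were not well above background. The probe had 9 or 10 usable spots per array, and the SD between them was 0.067 to 0.132 on control arrays but 0.421 to 0.732 after DBP5 siRNA on the log2 scale. On the processed values of the authors, IL1B differed from control by -0.89, -0.68 and -0.91 after DBP5, GLE1 and IPPK siRNA on the log2 scale.

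IL18, the other caspase-1 substrate, went the opposite way. It read 13.34, 13.38 and 13.21 in control, 13.75, 13.90 and 13.69 after DBP5, 14.06, 14.10 and 14.07 after GLE1 and 13.90, 13.92 and 13.90 after IPPK siRNA. Every knock-down array was above every control array. It rose to 1.38 ± 0.108 times control after DBP5 (limma adjusted p 1.12e-04), 1.70 ± 0.0269 after GLE1 (adjusted p 1.89e-06) and 1.51 ± 0.0110 after IPPK siRNA (adjusted p 1.93e-05). GLE1 was highest, 1.23-fold above DBP5 (adjusted p 0.00254) and 1.13-fold above IPPK (adjusted p 0.0398). The last call was lost without any 1 of the GLE1 or IPPK arrays, at adjusted p of 0.0651 to 0.106. DBP5 and IPPK did not pass the test against each other (ratio 0.917, 95% interval 0.831 to 1.01, adjusted p 0.136), although they did without the second DBP5 array (adjusted p 0.0299).

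IL33, the nuclear alarm cytokine whose receptor is IL1RL1, was well above background on all 12 arrays but close to it, between 4.35 and 5.15. The arrays of the 4 groups overlapped, and the lowest value was 1 IPPK array at 4.35. The ratio to control was 0.914 (95% interval 0.717 to 1.17) after DBP5, 0.963 (0.755 to 1.23) after GLE1 and 0.813 (0.637 to 1.04) after IPPK siRNA, with limma adjusted p of 0.541, 0.799 and 0.137.

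IL6, which signals through gp130 and is released by many stromal cells under NF-kappaB control, read 8.62, 8.84 and 8.68 in control and rose to 9.06, 9.33 and 9.29 after GLE1 siRNA. It fell to 6.78, 6.71 and 6.53 after DBP5 and to 7.03, 7.08 and 7.04 after IPPK siRNA. No 2 groups overlapped. IL6 was thus at 0.243 ± 0.0216 of control after DBP5 (limma adjusted p 4.38e-08), 1.43 ± 0.143 times control after GLE1 (adjusted p 5.93e-04) and 0.315 ± 0.00585 after IPPK siRNA (adjusted p 1.31e-07). The order was GLE1, control, IPPK and DBP5, with each neighbour different, the last by a ratio of 0.773 (adjusted p 0.00661).

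IL11, the related gp130 cytokine with a role in bone and in fibrosis, read 12.06, 12.18 and 11.88 in control. It rose to 12.93, 12.84 and 12.89 after GLE1 siRNA. It fell to 10.85, 10.60 and 10.61 after DBP5 and to 9.21, 9.10 and 9.14 after IPPK siRNA. The 4 groups were fully apart, and here IPPK rather than DBP5 knocked-down cells were lowest. The ratio to control was 0.390 ± 0.0394 after DBP5 (limma adjusted p 4.70e-07), 1.80 ± 0.0556 after GLE1 (adjusted p 9.89e-06) and 0.135 ± 0.00503 after IPPK siRNA (adjusted p 3.01e-09). GLE1 knocked-down cells were 13.3-fold above IPPK knocked-down cells (adjusted p 6.07e-10), and DBP5 knocked-down cells 2.902-fold above IPPK (adjusted p 3.26e-07). The calls for IL6 and IL11 in all 6 comparisons stayed past the threshold without any 1 array and in each alternative setting, apart from IL6 between DBP5 and IPPK in the methods' t-test after adjustment.

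LIF, which uses LIFR and gp130, changed far less. It read 10.57, 10.53 and 10.73 in control, 10.30, 10.37 and 10.33 after DBP5, 11.01, 10.91 and 10.94 after GLE1 and 10.61, 10.44 and 10.43 after IPPK siRNA. The GLE1 arrays stood above all others and the DBP5 arrays below all others, while control and IPPK arrays overlapped. Against control, LIF was at 0.824 ± 0.0199 after DBP5 (limma adjusted p 0.00572), 1.27 ± 0.0463 after GLE1 (adjusted p 0.00135) and 0.923 after IPPK siRNA (95% interval 0.829 to 1.03, adjusted p 0.183). IPPK and DBP5 did not pass the test (adjusted p 0.0765), but did with 75th percentile scaling, quantile normalization, normexp or the authors' values, at adjusted p down to 0.0278. A second LIF probe was dim (4.62 to 5.41) and passed in no comparison, with ratios of 1.03, 1.22 and 1.06 after DBP5, GLE1 and IPPK siRNA, so the calls for LIF rest on the brighter probe.

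CSF2, which drives granulocyte and macrophage growth, had the largest fall that could be measured on both sides after DBP5 siRNA. It read 9.86, 9.83 and 9.93 in control, 9.39, 9.67 and 9.74 after GLE1, 7.72, 7.82 and 7.84 after IPPK and 6.57, 6.68 and 6.37 after DBP5 siRNA. The 4 groups did not overlap, although the GLE1 arrays came close to control. The ratio to control was 0.0990 ± 0.0106 after DBP5 (limma adjusted p 3.79e-09), 0.237 ± 0.0109 after IPPK (adjusted p 5.24e-08) and 0.826 ± 0.102 after GLE1 siRNA (adjusted p 0.0339). DBP5 knocked-down cells were below IPPK knocked-down cells at a ratio of 0.418 (adjusted p 3.16e-06). The call after GLE1 siRNA was lost without any 1 of the control arrays or the first GLE1 array, at adjusted p of 0.0544 to 0.128. On the processed values of the authors the difference after DBP5 siRNA was -2.61 rather than -3.34 on the log2 scale.

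CSF1, the macrophage factor that osteoblast-lineage cells supply to osteoclast precursors, moved little. Its brightest probe read 8.95, 9.13 and 9.09 in control, 8.90, 8.89 and 9.0005 after DBP5, 9.14, 9.28 and 9.29 after GLE1 and 9.02, 9.05 and 9.14 after IPPK siRNA. Only the GLE1 arrays were all above the control arrays. The ratio to control was 1.13 ± 0.0628 after GLE1 (limma adjusted p 0.0334), 0.918 after DBP5 (95% interval 0.829 to 1.02, adjusted p 0.143) and 1.01 after IPPK siRNA (0.913 to 1.12, adjusted p 0.863). The call after GLE1 siRNA was lost without control array 1, GLE1 array 2 or GLE1 array 3, at adjusted p of 0.104 to 0.133. A second probe, for another transcript of the gene, read 6.54 to 6.82 after GLE1 siRNA and 6.19 to 6.30 in control, a ratio of 1.33 (adjusted p 0.0441), and did not pass after DBP5 (0.905) or IPPK siRNA (0.866). On this probe GLE1 knocked-down cells were 1.53-fold above IPPK (adjusted p 0.00625) and 1.47-fold above DBP5 knocked-down cells (adjusted p 0.0127). The third probe was well above background on 1 control and 1 GLE1 array only. On the brightest probe GLE1 exceeded DBP5 knocked-down cells 1.24-fold (adjusted p 0.00247), and against IPPK the adjusted p was 0.05003. It was 0.0171 with the replicate number as a block, 0.0249 without the first GLE1 array and 0.0459 without the third IPPK array. DBP5 and IPPK differed with the block as well (ratio 0.908, adjusted p 0.0426 against 0.107 without it).

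CSF3, the granulocyte factor, was not well above background on any of the 12 arrays for either of its probes, so no change can be stated for it.

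**Figure D3:**
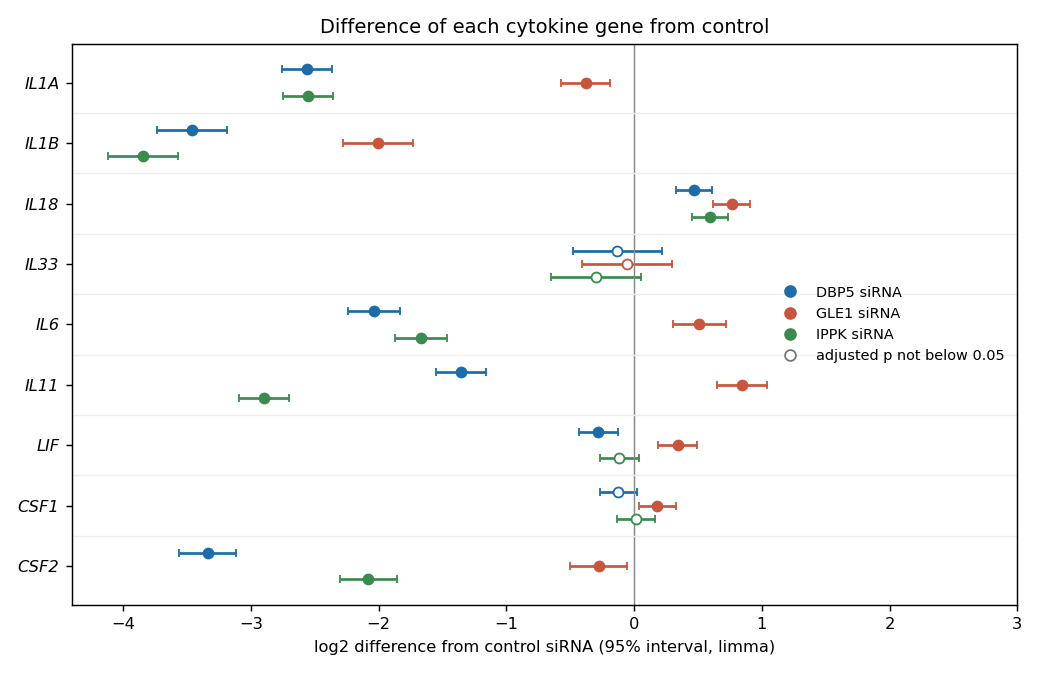
Log2 difference from control siRNA (x axis) of the 9 tested cytokine genes (y axis) after DBP5, GLE1 and IPPK siRNA. Points are limma estimates over 3 arrays a group, bars are 95% intervals without adjustment, and open points did not pass the adjusted threshold. For IL1A, IL1B, IL6, IL11 and CSF2 the DBP5 and IPPK points are left of 0 and the GLE1 point is to the right of both; DBP5 and IPPK nearly coincide for IL1A and are well apart for IL11 and CSF2. The IL1B points after DBP5 and IPPK siRNA are below background and show only that it was lower.

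Compared directly, 8 of the 9 tested genes were higher in GLE1 than in DBP5 knocked-down cells and none was lower, where 54.6% of all genes were called (28% lower, 26.5% higher). The 8 exclude IL33. The count of lower genes was also 0 by limma at an unadjusted p under 0.05 and by the methods' t-test. Between GLE1 and IPPK knocked-down cells 7 were higher and none was lower, against 60.2% of all genes called (30.7% lower, 29.4% higher). The 7 exclude IL33 and CSF1, the latter on its brightest probe only. IL1B is among the 8 and the 7, although it was not well above background on any DBP5 or IPPK array or on 1 GLE1 array. It is no support for either count. Between DBP5 and IPPK knocked-down cells IL6 and CSF2 were lower after DBP5 and IL11 was higher, against 48.9% of all genes called (25.1% lower, 23.8% higher). IL1B was also called in this last comparison but lay below background in both groups, and replicate number 3 gave the opposite sign. Its call was lost without DBP5 array 1 or 2 or IPPK array 1 or 2, at adjusted p of 0.0585 to 0.0896. Of the 40 calls on these genes in the 6 comparisons, the other 39 had the same sign within all 3 replicate numbers. The same arrays gave the calls and no share over all features was computed, so this adds no separate support.

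The genes that receive and carry these signals were taken as lists written from general knowledge with earlier results known. Their counts stand beside the shares over all features, of which 27.5% were lower and 26.7% higher after DBP5, 31.5% and 30.6% after GLE1 and 28% and 27.3% after IPPK siRNA, and their medians beside all-feature medians of -0.02, 0.01 and -0.03. Of 18 receptors and decoys, 4 were lower and 6 higher after DBP5, 4 lower and 8 higher after GLE1 and 5 lower and 3 higher after IPPK siRNA. Their median log2 differences were -0.00, 0.25 and -0.05. CSF1R, the receptor of CSF1, was at 0.339 ± 0.0203 of control after DBP5 and 0.183 ± 0.0144 after IPPK but 2.18 ± 0.288 after GLE1 siRNA, and all 3 were called. IL1RAP, the shared co-receptor for IL-1 and IL-33, was at 0.215 ± 0.00783 after GLE1 siRNA (limma adjusted p 1.30e-09) and at 0.905 and 0.969 after DBP5 and IPPK siRNA, neither called. IL18R1, the receptor of IL-18, fell in all 3 knock-downs, to 0.245, 0.323 and 0.426 of its control level in that order of DBP5, GLE1 and IPPK siRNA. The decoy IL1R2 was lower after DBP5 siRNA and IL1RL1, the IL-33 receptor, was lower after IPPK siRNA. Neither was well above background on any array there, so no fold is given. IL1RL1 was higher after DBP5 siRNA, at 1.55 times control (adjusted p 0.0278), and at 1.18 after GLE1 siRNA (adjusted p 0.367), and IL1R2 was at 0.513 after GLE1 siRNA, where 2 of 3 arrays were well above background, and at 0.817 after IPPK siRNA, which did not pass. The receptors of the gp130 cytokines were named after their values were seen and went different ways. IL6R, the receptor of IL-6, fell to 0.498 after DBP5 and 0.764 after IPPK siRNA and rose to 1.31 times control after GLE1 siRNA. IL11RA, the receptor of IL-11, fell to 0.554 after GLE1 and 0.779 after IPPK siRNA and was at 0.843 after DBP5 siRNA (adjusted p 0.0897). LIFR rose to 1.46 after DBP5 and 3.16 after GLE1 siRNA and was at 1.09 after IPPK siRNA (adjusted p 0.213). IL6ST, the shared subunit gp130, rose in all 3, to 1.22, 1.46 and 1.43 times control after DBP5, GLE1 and IPPK siRNA. OSMR, a further receptor of the list, rose to 2.30, 2.39 and 2.95 times control in the same order, all called.

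Of 14 genes for the maturation and release of these cytokines 12 were tested, of which 7 were lower and 2 higher after DBP5, 4 lower and 5 higher after GLE1 and 3 lower and 2 higher after IPPK siRNA. The median log2 differences were -0.31, 0.02 and -0.14, beside -0.02, 0.01 and -0.03 over all features, of which 27.5% were lower after DBP5 siRNA. CASP1, which cleaves the IL-1β and IL-18 precursors, was at 0.415 ± 0.0396 of control after DBP5 (limma adjusted p 2.61e-07) and 0.50 ± 0.027 after IPPK siRNA (adjusted p 1.24e-06), and at 0.881 after GLE1 siRNA (adjusted p 0.0559). NLRP3, a sensor that activates caspase-1, fell to 0.555 after DBP5 siRNA and rose to 1.14 after GLE1 and 1.55 after IPPK siRNA. CASP4, the caspase of the non-canonical inflammasome, rose to 1.29 after DBP5 and 1.86 after IPPK siRNA and fell to 0.837 after GLE1 siRNA. CASP8 fell to 0.381 after GLE1 and 0.538 after DBP5 siRNA and was at 0.630 after IPPK siRNA (adjusted p 0.0538). AIM2, a DNA sensor, was well above background on all 3 arrays after GLE1 siRNA, with a mean level of 4.78, but on 1 array each in control and after DBP5 siRNA and on none after IPPK siRNA, so no fold is given.

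Of 14 tested genes of 15 in IL-1 receptor signalling, 4 were lower and 7 higher after DBP5, 2 lower and 10 higher after GLE1 and 3 lower and 9 higher after IPPK siRNA, with median log2 differences of 0.22, 0.41 and 0.34, beside -0.02, 0.01 and -0.03 over all features, of which 26.7%, 30.6% and 27.3% were higher. IRAK2, a kinase of this pathway, was at 0.447 ± 0.0741 after DBP5, 0.614 ± 0.00977 after IPPK and 1.35 ± 0.0746 after GLE1 siRNA, each called. IRAK4, the kinase that starts the cascade, rose in all 3, to 1.81, 2.31 and 2.898 times control after DBP5, GLE1 and IPPK siRNA. TAB3, an adaptor of the kinase TAK1, rose to 2.42, 2.34 and 1.30 times control in the same order. IRAK1 fell to 0.343 after IPPK siRNA and rose to 1.26 after GLE1 siRNA, and TOLLIP rose to 1.83 after GLE1 and 1.49 after IPPK siRNA.

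Of 16 genes that signal below gp130 and the colony-stimulating factor receptors, 4 were lower and 8 higher after DBP5, 3 lower and 9 higher after GLE1 and 3 lower and 7 higher after IPPK siRNA. The median log2 differences were 0.27, 0.24 and 0.06. SOCS3, the feedback inhibitor of gp130 signalling, rose to 3.02 ± 0.310 times control after GLE1 siRNA (limma adjusted p 1.48e-07) and was at 1.18 after DBP5 and 0.899 after IPPK siRNA, neither called. SOCS1 fell to 0.50 after DBP5 and 0.624 after IPPK siRNA and was at 0.981 after GLE1 siRNA. SOCS2 fell to 0.829 after DBP5 siRNA (adjusted p 0.0352) and rose to 1.19 after GLE1 and 2.76 after IPPK siRNA. STAT5A, a transducer of cytokine receptors, rose to 1.30, 1.15 and 2.595 times control, and the kinase JAK2 to 1.28, 1.73 and 2.37 times, after DBP5, GLE1 and IPPK siRNA.

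Of 20 transcription factors that act on these genes, 7 were lower and 2 higher after DBP5, 9 lower and 7 higher after GLE1 and 5 lower and 6 higher after IPPK siRNA. The median log2 differences were -0.08, -0.08 and -0.06. JUN, a partner in AP-1, rose in all 3, to 1.31, 3.25 and 2.38 times control after DBP5, GLE1 and IPPK siRNA, while FOS, its other partner, fell in all 3, to 0.657, 0.487 and 0.612. ATF3 rose to 2.33 after GLE1 and 1.24 after IPPK siRNA. NFKBIZ, a nuclear NF-kappaB cofactor used at the IL6 gene, fell to 0.756 after DBP5 and 0.446 after GLE1 siRNA and rose to 1.22 after IPPK siRNA. EGR1 fell to 0.414 after GLE1 siRNA.

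Of 18 factors that bind or cleave cytokine mRNAs, 5 were lower and 7 higher after DBP5, 6 lower and 10 higher after GLE1 and 6 lower and 5 higher after IPPK siRNA. The median log2 differences were 0.10, 0.31 and -0.06. ZC3H12A, the RNase that cleaves IL6 mRNA, fell in all 3, to 0.427 ± 0.0142, 0.517 ± 0.0294 and 0.398 ± 0.0304 of its level in control for DBP5, GLE1 and IPPK siRNA. ZFP36, which binds AU-rich elements and promotes decay, also fell in all 3, to 0.602, 0.519 and 0.721. HNRNPD, another AU-rich element binding protein, rose to 1.27 after DBP5 and fell to 0.616 after GLE1 siRNA. IGF2BP2 rose to 2.51, 1.57 and 1.43 times control after DBP5, GLE1 and IPPK siRNA, and IGF2BP3 fell to 0.515 after DBP5 and rose to 1.41 after GLE1 siRNA.

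Of 44 other interleukins and haematopoietic cytokines 29 were tested, with 11 lower and 6 higher after DBP5, 5 lower and 10 higher after GLE1 and 10 lower and 4 higher after IPPK siRNA. The median log2 differences were -0.08, 0.21 and -0.09, and over all features 27.5% were lower after DBP5, 30.6% higher after GLE1 and 28% lower after IPPK siRNA. IL15, which sustains lymphocytes, was at 0.212 ± 0.0219 after DBP5 and 0.432 ± 0.0111 after IPPK siRNA, both called, and at 1.03 after GLE1 siRNA (limma adjusted p 0.730). IL24 fell to 0.217 after DBP5 siRNA, rose to 1.21 after GLE1 siRNA and was at 1.02 after IPPK siRNA. FLT3LG, a growth factor for early blood cells, fell in all 3, to 0.242, 0.223 and 0.354. IL7 fell to 0.378 after DBP5 and 0.290 after GLE1 siRNA, and IL36B rose to 1.32, 2.16 and 4.22 times control after DBP5, GLE1 and IPPK siRNA.

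**Figure D4:**
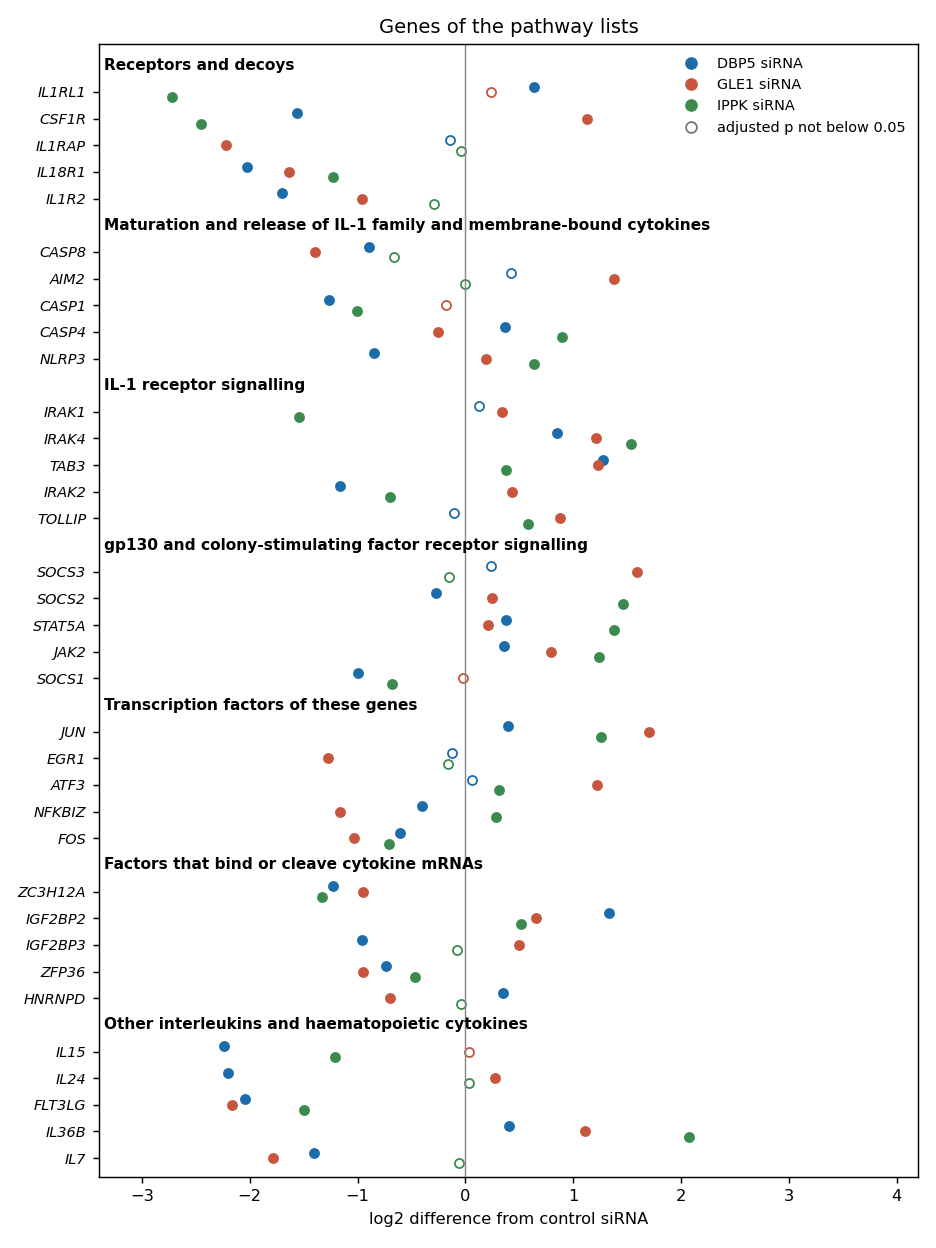
Log2 difference from control siRNA (x axis) of up to 5 genes per list with the largest absolute differences (y axis), after DBP5, GLE1 and IPPK siRNA. Open points did not pass the adjusted threshold. CSF1R, IRAK2 and IL15 have their GLE1 point to the right of the other points, whereas ZC3H12A, ZFP36, FOS, IL18R1 and FLT3LG lie left of 0 in all knock-downs. The IL1RL1 point after IPPK siRNA and the IL1R2 point after DBP5 siRNA are below background, and the AIM2 points are set against a control that was well above background on 1 array.

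For each tested cytokine, the 2 genes whose log2 levels followed it most closely over the 12 arrays were picked among genes well above background on all arrays. Pearson's r is a description, since the 12 points are 4 groups of 3 that share replicate numbers. PLCD4 (r = 0.996) and FAM3C (0.995) were closest to IL1A, LCK (0.994) and EAF1 (0.992) to IL1B, and IDS (0.989) and CCRL2 (0.989) to IL6. IL1B was not well above background on any DBP5 or IPPK array or on 1 GLE1 array, and its r values include these readings. UVRAG (0.996) and LSP1 (0.994) were closest to IL11, NXPE3 (0.990) and AGTPBP1 (0.987) to IL18, and SFRP1 (0.995) and P4HA2 (0.992) to CSF2. The values were lower for LIF, with BIK (0.968) and ATP1A4 (0.963), for CSF1, with TGFB3 (0.950) and SMAD4 (0.942), and for IL33, with OR4C15 (0.844) and ZNF677 (0.835). The size of change differed within such pairs. After DBP5, GLE1 and IPPK siRNA, FAM3C was at 0.262, 0.844 and 0.285 of its control level, and LCK at 0.194, 0.364 and 0.17. SFRP1, a secreted Wnt inhibitor, was at 0.267, 0.880 and 0.438, and UVRAG at 0.694, 1.30 and 0.395.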

How the data were processed

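Cytoplasmic RNA from 12 samples of transfected U2OS cells was hybridised to Agilent arrays in a single colour, 3 per siRNA, with groups and replicate numbers taken from the labels. Per the file headers, the authors read the arrays with Feature Extraction 10.7.3.1, which gave each spot a linear intensity less its local background, and flags for outliers, saturation and signal over background. The authors also deposited processed log2 values, normalized by LOESS in R according to the methods; these followed the intensity without background subtraction, and the background setting is not given in the sources used here. The array design names hg19.

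From the deposited background-subtracted intensity, outlier spots (169 to 358 of 43118 per array) were left out, saturation marked 0 spots, spots of one probe were averaged as log2 and arrays were normalized by cyclic loess. Probes were named through RefSeq accessions (GRCh38.p14 table; 26449 of 34127 matched, 77.5%). The brightest probe stood for a gene, kept where some siRNA had all its 3 arrays flagged as well above background. One mean per siRNA was fitted over the 12 arrays with limma 3.58.1 in R 4.3.3, with Benjamini-Hochberg adjustment at 0.05 over 20821 features (16438 named genes, and 4383 accessions without a name that count as genes in the shares given), after a test on simulated data. Tables and figures used Python 3.11.15, pandas 2.3.3, numpy 2.4.6 and matplotlib 3.10.9. Arrays give no molecule counts, and their number limits the precision.

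The numbers pair the arrays. For 18 pairs with the same number and different siRNA, the deviations from group means correlated at 0.315 to 0.545, and over 36 other pairs at -0.333 to -0.016. The number was therefore tried as a block. The labels do not say what a shared number stands for.

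The members, the lists and the tests were chosen with earlier results of these data known. Named list genes are the at most 5 per list with the largest absolute difference from control among those called, and the 2 closest genes per cytokine were taken by Pearson's r. Alternatives were 75th percentile scaling, quantile normalization, normexp (offset 50), the authors' values, other filters and the mean of or each of a gene's probes. Others were the replicate block, only the 6 arrays compared, an intensity trend, each array left out and the methods' t-test (paired by number). The methods name this t-test in general and use rank products for the array gene lists. Promoters were read from RefSeq on GRCh38.p14; 6 of the 10 genes had one there.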

Additional observations from a re-analysis of the deposited data

How the results depend on the processing

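The 9 tested cytokine genes gave 40 calls in the main setting over 54 comparisons, and 31 of these kept their direction and stayed past the threshold under all alternatives run for them other than single probes; IL1B was not tested with the filter on all arrays. The other 9 calls were CSF1 (GLE1 against control and against DBP5), CSF2 (GLE1 against control), IL18 (GLE1 against DBP5 and against IPPK), IL6 and IL1B (DBP5 against IPPK) and LIF (DBP5 and GLE1 against control). With the replicate block, 7, 8 and 6 cytokine genes were called after DBP5, GLE1 and IPPK siRNA, as without it, and it added only the CSF1 calls of GLE1 and of DBP5 against IPPK. The number of cytokine genes called higher in DBP5 than in IPPK knocked-down cells, 2 in the main setting, was 1 with 75th percentile scaling, quantile normalization, normexp, the authors' values, the filter on all arrays, only the 6 arrays, the intensity trend and the methods' t-test, adjusted or not, and 1 to 2 with an array left out; in each the gene that dropped out was IL1B. The number called lower there was 4 with 75th percentile scaling, against 2. Over all genes, the methods' t-test with Benjamini-Hochberg adjustment called 5046 after DBP5 siRNA (11302 with limma), 7632 after IPPK siRNA (11525), 5309 for GLE1 against DBP5 (11364) and 3949 for DBP5 against IPPK (10183). Taken on its own, the dim LIF probe gave 0.045 on the log2 scale after DBP5 siRNA (adjusted p 0.865), where the bright one gave -0.28. IPPK after GLE1 siRNA turned from -0.28 to 0.39 with the mean of its probes and to 1.06 on its other probe. Of 378 counts of list genes under alternatives, 364 stayed within 1.5 times. Low signal over background limits IL1B, IL33 and CSF3, and the cause of the differences between settings was not tested.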

Other observations

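CSF2 and P4HA2, which encodes a subunit of collagen prolyl hydroxylase, are next to each other among the protein-coding genes of the RefSeq table, and P4HA2 was also among the 2 genes closest to CSF2 in level over the 12 arrays (Pearson's r = 0.992). Relative to control, P4HA2 was at 0.525 with DBP5, 0.926 with GLE1 and 0.653 with IPPK siRNA, with limma adjusted p of 9.61e-07, 0.178 and 1.92e-05. PDLIM4, the next gene on that side, was at 0.607, 0.671 and 0.499 and was called in all 3. On the other side of CSF2, IL3 was not well above background on all arrays of any siRNA and ACSL6 was at 1.78, 0.619 and 2.36 times control, called after IPPK siRNA only. These neighbours were looked up after the values of CSF2 were known.

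IL1A and IL1B lie side by side. CKAP2L, the gene before IL1A, was at 0.433, 0.294 and 0.624 of its control level for DBP5, GLE1 and IPPK siRNA, each called, so that GLE1 knocked-down cells were lowest there rather than highest of the 3. IL37, the gene after IL1B, was at 0.818, 0.893 and 1.48, called lower after DBP5 and higher after IPPK siRNA. TMEM190, next to IL11, was at 0.550, 0.660 and 0.370, called after DBP5 and IPPK siRNA, with limma adjusted p of 0.0125, 0.0555 and 5.50e-04, and GARIN5B on its other side was at 0.923, 1.11 and 0.974, called in no knock-down. Beside IL6, TOMM7 was at 0.951, 0.946 and 0.890 of control, called lower after IPPK siRNA only (adjusted p 0.00989). SDHD beside IL18 was at 1.05, 1.06 and 0.919 and was called in no knock-down.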
